A study of Homo sapiens with 9 samples.

Results

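Receptor-type protein tyrosine phosphatases were followed in SNU-398 cells, a mesenchymal-like hepatocellular carcinoma (HCC) cell line, in RNA-seq libraries of 3 groups with 3 libraries each. The family was taken by gene name: 10 genes of the 60642 gene names listed, made up of 4 of the R2B subtype (PTPRK, PTPRM, PTPRT and PTPRU), 3 of the R2A subtype (PTPRD, PTPRF and PTPRS), 2 of the R4 subtype (PTPRA and PTPRE) and 1 of the R5 subtype (PTPRG). These genes were chosen by their expression, because members rose in cells overexpressing full-length EMX1, so their values in that contrast are given as a description, and counts of members past a threshold in it restate the choice. Of the 10, 9 passed the filter on low counts and were among the 18574 genes tested, and PTPRT did not pass. The filter asked for 0.421 CPM (counts-per-million) in at least 3 libraries, which PTPRD and PTPRE reached in 1 and 2 vector libraries and in all 6 overexpression libraries, so both entered through the groups in which they were high.

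The groups were a vector control, whose genotype is labelled wild type, and cells that stably overexpressed 1 of 2 transcripts of EMX1, a homeobox transcription factor. EMX1-FL is the full-length transcript with the complete homeodomain, and EMX1-X1 carries an alternative terminal exon. The constructs were delivered with lentivirus, and all 3 groups, the vector control included, went through puromycin selection in the same RPMI1640 medium. The promoter of the constructs, and whether a line is a clone or a pool, are not given in the sources used here, and p-values measure the spread between these libraries only. Figure legends of the study speak of biological replicates, while the labels do not say that the libraries of a group came from separate cultures. Counts are per gene, so the 2 transcripts are not told apart, nor is ectopic EMX1 from that of the cells.

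Receptor-type protein tyrosine phosphatases are single-pass membrane proteins, most of which remove phosphate from tyrosine residues and so oppose tyrosine kinases. Members of the R2B subtype carry MAM, immunoglobulin and fibronectin domains outside the cell and bind the same protein on a neighbouring cell. They are cut by furin, ADAM10 and gamma-secretase, and some of them act on catenins and other junction proteins. In epithelial cells PTPRK is known for dephosphorylating the EGF receptor. The R2A subtype, the LAR family, binds heparan sulfate proteoglycans and synaptic adhesion proteins and passes signals through liprins and TRIO. Members of the R4 subtype have short, heavily glycosylated outer parts, and PTPRA activates SRC family kinases, while PTPRG of the R5 subtype has a carbonic anhydrase-like domain that binds contactins.

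Promoter windows of the members were read from RefSeq gene starts on GRCh38.p14, each 300 bases long with 250 bases before and 50 after the start, and were searched for homeodomain core motifs on both strands because EMX1 is a homeodomain factor. All 10 members were matched, with 17 windows in all. The motif TAATTA, which reads the same on both strands, was in 0 of the 17 windows and in 4.84% of 35116 windows of all genes. The motif TAATTG, or CAATTA on the other strand, was in 1 of the 17 windows and in 7.38% of all windows. A match is no evidence of binding, and a window without one says only that these letters are not in it. The window at the outermost start of the 3 R2B members whose levels are compared here (PTPRK, PTPRM and PTPRU) and the 1 window with a motif (an internal start of PTPRD) are shown 5′ to 3′ on the strand of the gene, in lower case, with the motif in capitals.
PTPRK, chr6:128520550-128520849, minus strand: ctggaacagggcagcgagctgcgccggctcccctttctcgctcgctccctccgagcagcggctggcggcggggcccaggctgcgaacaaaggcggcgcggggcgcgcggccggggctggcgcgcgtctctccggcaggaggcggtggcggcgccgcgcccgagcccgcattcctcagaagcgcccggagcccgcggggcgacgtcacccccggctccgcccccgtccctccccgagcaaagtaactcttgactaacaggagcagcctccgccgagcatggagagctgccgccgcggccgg
PTPRM, chr18:7567066-7567365, plus strand: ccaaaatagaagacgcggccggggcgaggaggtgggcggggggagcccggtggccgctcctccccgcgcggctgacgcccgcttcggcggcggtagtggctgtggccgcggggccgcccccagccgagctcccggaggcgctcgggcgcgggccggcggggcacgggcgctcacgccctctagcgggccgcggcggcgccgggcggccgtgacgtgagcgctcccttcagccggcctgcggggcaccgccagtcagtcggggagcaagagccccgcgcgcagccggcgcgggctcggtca
PTPRU, chr1:29236272-29236571, plus strand: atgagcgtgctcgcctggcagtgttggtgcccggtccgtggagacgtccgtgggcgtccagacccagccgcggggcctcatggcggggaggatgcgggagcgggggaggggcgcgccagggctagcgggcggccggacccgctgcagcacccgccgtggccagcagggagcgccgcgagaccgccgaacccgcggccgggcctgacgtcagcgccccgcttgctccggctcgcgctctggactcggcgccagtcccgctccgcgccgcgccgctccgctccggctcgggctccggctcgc
PTPRD, chr9:8779342-8779641, minus strand: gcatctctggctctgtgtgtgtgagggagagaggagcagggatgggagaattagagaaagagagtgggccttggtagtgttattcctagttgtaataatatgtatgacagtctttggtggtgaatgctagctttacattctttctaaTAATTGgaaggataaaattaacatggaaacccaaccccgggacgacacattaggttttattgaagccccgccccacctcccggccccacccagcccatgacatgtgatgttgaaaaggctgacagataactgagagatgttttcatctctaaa
The windows at the outermost starts of PTPRK, PTPRM and PTPRU were all rich in CpG. They held 44, 50 and 47 CpG dinucleotides and had a GC content of 76.3%, 80.7% and 78.7%, while the median of all windows was 14 CpG and 58.7%. A second PTPRM window at an internal start, from 7946625 to 7946924 of chromosome 18, held 2 CpG at 41.0% and no motif. The PTPRD window with the motif held 4 CpG at a GC content of 45.3%, and the window at the outermost start of PTPRD held 40 CpG at 75.3% and no motif.

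The libraries held between 21562703 and 25197970 counted read pairs, and no pair of libraries within a group agreed within sampling noise. The overexpressed gene was read first, as CPM over the TMM-normalized library size. EMX1 averaged 10.7 ± 1.90 CPM over the vector libraries, 177 ± 64.3 over the EMX1-FL libraries and 242 ± 84.6 over the EMX1-X1 libraries (SD, n = 3 each). The libraries also fell into 2 clusters that are not conditions: the leading principal component, with 39.6% of the variance, separated vector control 1 and 2, EMX1-FL 2 and 3 and EMX1-X1 1 (cluster A) from vector control 3, EMX1-FL 1 and EMX1-X1 2 and 3 (cluster B). Median GC content was 61.0% for the tenth of genes highest in cluster B and 38.5% for the tenth highest in cluster A. The level of EMX1 in the overexpression groups also split by cluster. In cluster B it was at 251 CPM in EMX1-FL 1 and at 294 and 288 CPM in EMX1-X1 2 and 3. In cluster A it was at 135 and 145 CPM in EMX1-FL 2 and 3 and at 145 CPM in EMX1-X1 1. Of the 13 hepatocyte markers, ALB alone passed the filter and AFP, TTR, FOXA2 and KRT18 were at 0 in all 9 libraries, though KRT8 and KRT18 have many near-identical pseudogenes that can take their reads. All 7 mesenchymal markers were tested, with VIM at 846 ± 132 TPM (a transcripts-per-million value, which takes out gene length; SD, n = 3) in the vector control.

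To see which receptor phosphatases SNU-398 cells express, levels were compared per length, as TPM. PTPRA was the most abundant member, with a mean of 71.9 TPM over the 9 libraries (66.8 to 74.5). PTPRS followed at 57.5 TPM (41.1 to 83.6) and PTPRF, the LAR phosphatase itself, at 32.3 TPM (25.4 to 43.4). The range of PTPRS overlapped those of both its neighbours in the order. PTPRG, PTPRU and PTPRK formed a middle tier with overlapping ranges, at 16.3 TPM (11.4 to 22.0), 11.3 TPM (8.39 to 16.6) and 11.1 TPM (4.99 to 18.0), below the lowest library of PTPRF. PTPRM was at 2.52 TPM (1.13 to 3.91), under every library of PTPRK. The low end held PTPRD at 0.296 TPM (0.0600 to 0.544) and PTPRE at 0.282 TPM (0.0693 to 0.558), whose ranges overlapped, and PTPRT at 0.00805 TPM (0 to 0.0602).
PTPRD and PTPRE therefore rest on few reads, with between 5 and 34 counts and between 5 and 38 counts in a library, while PTPRK had between 312 and 903.

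**Figure D1:**
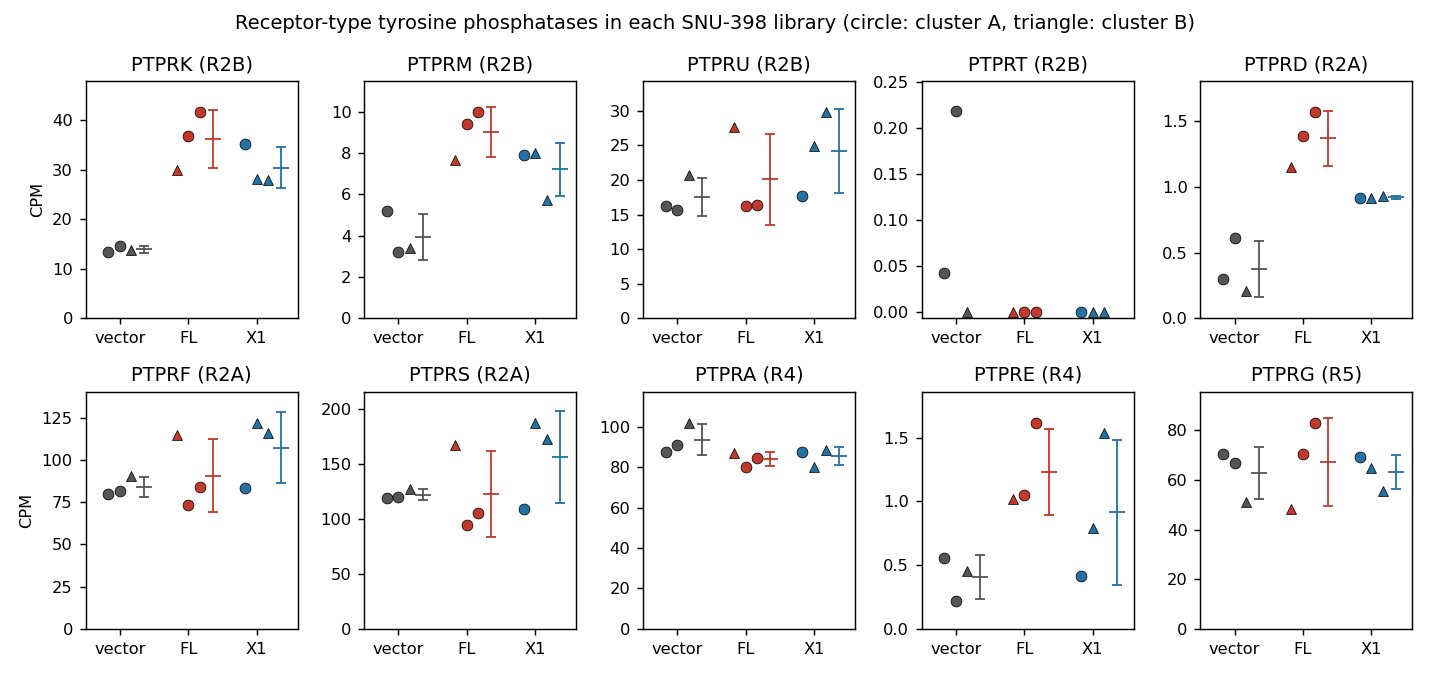
Level of each member in CPM (y axis, counts-per-million) in each library of the vector control, EMX1-FL and EMX1-X1 groups (x axis). Points are libraries, circles of cluster A and triangles of cluster B, and the bars are the mean ± SD of 3 libraries (none for PTPRT). PTPRK, PTPRM and PTPRD lie higher in all 6 overexpression libraries than in the 3 vector libraries. Of all genes tested, 5.36% lie so with EMX1-FL, the contrast that chose the genes, and 8.03% with EMX1-X1. The cluster B libraries lie highest for PTPRU, PTPRF and PTPRS in each group.

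PTPRK, the member with the largest change for its standard error, was at 13.4, 14.6 and 13.8 CPM in vector control 1 to 3. It was at 30.0, 36.9 and 41.7 CPM in EMX1-FL 1 to 3, and at 35.2, 28.2 and 27.9 CPM in EMX1-X1 1 to 3. All 6 overexpression libraries were thus above all 3 vector libraries, and the EMX1-FL and EMX1-X1 libraries overlapped. Of all genes tested, 5.36% lay above the vector libraries in this way with EMX1-FL, the contrast that chose the genes, and 8.03% with EMX1-X1. The same shares apply to PTPRM and PTPRD below. The libraries are of whole cultures, so more cells with PTPRK RNA and more PTPRK RNA per cell cannot be told apart, here or for any other member. As group means, PTPRK went from 13.9 ± 0.619 CPM without EMX1 constructs to 36.2 ± 5.89 CPM with EMX1-FL and 30.4 ± 4.10 CPM with EMX1-X1 (SD, n = 3 each). On GRCh38 the gene spans 127968779 to 128520674 of chromosome 6, where AL590006.1 overlaps 1.92% of its exon bases.

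PTPRM, a homophilic adhesion molecule like PTPRK, was at 5.18, 3.19 and 3.42 CPM in the vector libraries. Its level was 7.63, 9.39 and 9.98 CPM in the EMX1-FL libraries and 7.91, 7.98 and 5.73 CPM in the EMX1-X1 libraries. No overexpression library was as low as a vector library, with EMX1-X1 3 closest to vector control 1. PTPRM lies on chromosome 18 from 7566782 to 8406861 and shares 1.02% of its exon bases with AP001094.1.

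PTPRU, another R2B member that is known to bind beta-catenin, differed mainly between the clusters. It was at 16.2, 15.7 and 20.7 CPM in the vector libraries, 27.7, 16.3 and 16.4 CPM in the EMX1-FL libraries and 17.7, 24.9 and 29.8 CPM in the EMX1-X1 libraries. In each group the libraries of cluster B were the highest, and the 3 groups overlapped. Within a cluster the overexpression libraries lay above the vector libraries, at 24.9 to 29.8 against 20.7 CPM in cluster B and, by a narrow margin, at 16.3 to 17.7 against 15.7 and 16.2 CPM in cluster A. PTPRU lies on chromosome 1 from 29236516 to 29326813. PTPRT, known mainly from the nervous system and as a mutated gene in colorectal cancer, had 1, 5 and 0 counts in the vector libraries and 0 in all 6 overexpression libraries, which allows up to 0.0443 CPM in EMX1-FL cells and 0.0414 CPM in EMX1-X1 cells (3 counts over the 3 libraries of a group, counting error only). No difference was detectable at this depth, and PTPRT (chromosome 20, 42072752 to 43189970) entered no test.

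In the R2A subtype, PTPRD had the lowest level and separate groups. This gene, a presynaptic organizer in neurons and a gene often lost in tumors, was at 0.300, 0.611 and 0.206 CPM in the vector libraries. It was at 1.15, 1.39 and 1.57 CPM in the EMX1-FL libraries and at 0.915, 0.914 and 0.929 CPM in the EMX1-X1 libraries. All 3 groups were separate, with EMX1-X1 between the others. In counts these are 7, 14 and 5 read pairs in the vector libraries against 26, 33 and 34 and 22, 22 and 23. PTPRD lies on chromosome 9 from 8314246 to 10612723.

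PTPRF and PTPRS, both abundant in these cells, differed more between clusters than between groups. PTPRF (chromosome 1, 43525187 to 43623666) was at 79.6, 81.9 and 90.7 CPM in the vector libraries, 115, 73.2 and 84.2 CPM in the EMX1-FL libraries and 83.2, 122 and 116 CPM in the EMX1-X1 libraries. PTPRS (chromosome 19, 5158495 to 5340803), a receptor for chondroitin and heparan sulfate proteoglycans, was at 119, 120 and 128 CPM, at 168, 94.8 and 106 CPM, and at 109, 188 and 173 CPM. For both genes EMX1-FL 1 and EMX1-X1 2 and 3 were high, above vector control 3, the vector library of the same cluster. In cluster A the overexpression libraries lay on both sides of the vector libraries for PTPRF and below them for PTPRS. The groups as a whole overlapped for both genes.

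In the R4 subtype, PTPRA was nearly level. It was at 87.5, 91.2 and 102 CPM in the vector libraries, 87.1, 80.3 and 84.6 CPM in the EMX1-FL libraries and 87.5, 80.2 and 88.5 CPM in the EMX1-X1 libraries. The EMX1-FL libraries lay just below the lowest vector library, as in 5.14% of all genes tested, and 12.5% of the exon bases of PTPRA (chromosome 20, 2864184 to 3039076) are shared with VPS16. PTPRE, its relative, was at 0.557, 0.218 and 0.453 CPM in the vector libraries, 1.02, 1.05 and 1.62 CPM in the EMX1-FL libraries and 0.416, 0.790 and 1.53 CPM in the EMX1-X1 libraries. The EMX1-FL libraries were above the vector libraries, and the EMX1-X1 libraries spread over the range of both. PTPRE lies on chromosome 10 from 127907061 to 128085855.
PTPRG, the R5 member, was at 70.3, 66.9 and 51.0 CPM in the vector libraries, 48.1, 70.4 and 83.0 CPM in the EMX1-FL libraries and 69.1, 64.7 and 55.6 CPM in the EMX1-X1 libraries. Its groups overlapped, and it was lowest in cluster B libraries. PTPRG lies on chromosome 3 from 61561569 to 62297609, and the antisense gene PTPRG-AS1 overlaps 9.18% of its exon bases. The counting was not stated to use strand, and without strand the default of featureCounts leaves pairs on those shared bases uncounted for both genes.

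The fold changes between EMX1-FL cells and the vector control were fitted with edgeR over all 9 libraries. They describe the contrast that chose these genes. PTPRK had a log2 fold change of 1.38 (standard error 0.19), PTPRM of 1.19 (0.25), PTPRD of 1.87 (0.45) and PTPRE of 1.57 (0.55). The other 5 members lay between -0.16 for PTPRA (0.15) and 0.20 for PTPRU (0.26), with PTPRF at 0.11 (0.21), PTPRG at 0.10 (0.22) and PTPRS at 0.01 (0.25). The study called genes that changed at least 2-fold (1 on the log2 scale) at an unadjusted p under 0.05. The first 4 are past that rule, as were 2.04% of all genes tested in the same direction, and their libraries lay above all vector libraries, as in 5.36% of all genes tested. Since members were chosen for rising here, nothing is read from these counts. The median log2 fold change was 0.20 over the 9 members and 0.04 over all genes tested, and 8 of the 9 had a positive value, as did 56.3% of all genes tested.

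Whether EMX1-X1, the transcript without the complete homeodomain, went with the same levels was read from the EMX1-X1 libraries. The stated reason for choosing the genes was their rise with EMX1-FL, but earlier results of these data were known. The EMX1-X1 libraries were set against the same 3 vector libraries, and genes chosen as high over those libraries are favoured to exceed them again. The fold changes are therefore given with their standard errors, and no p-value is read as independent evidence. PTPRK was 2.19-fold higher in EMX1-X1 cells, a log2 fold change of 1.13 (standard error 0.19). PTPRM had a log2 fold change of 0.87 (standard error 0.25), short of the fold threshold. PTPRD was 2.46-fold higher, at 1.30 (standard error 0.46), and PTPRE was at 1.15 (standard error 0.56). Both of these genes entered the fit through the overexpression libraries, which favours a positive value. In PTPRK, PTPRM and PTPRD every EMX1-X1 library was above every vector library, as in 8.03% of all genes tested, while the groups of PTPRE overlapped.

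The study's rule called 2 of the 9 members higher in EMX1-X1 cells (PTPRK and PTPRD), where 1.95% of all genes tested were. Without the fold, 3 members were under an unadjusted p of 0.05 in edgeR (PTPRK, PTPRM and PTPRD), as were 8.11% of all genes tested. PTPRD entered the fit through the overexpression libraries, which favours its place in both counts. With at least 10 counts in every library PTPRD was not tested, and PTPRK was the 1 member past the study's rule. After Benjamini-Hochberg adjustment 0 members passed in edgeR, with PTPRK at an adjusted p of 0.185, and 1 gene of all tested, EMX1 itself, did (0.00538%). With DESeq2, PTPRK alone among the members passed after adjustment, as did 0.258% of all genes. The remaining 5 members had log2 fold changes of 0.46 for PTPRU, 0.36 for PTPRS, 0.35 for PTPRF, 0.01 for PTPRG and -0.13 for PTPRA, with adjusted p values in edgeR from 0.655 to 0.993. The median was 0.46 over the 9 members and 0.01 over all genes tested. That member median is the value of PTPRU, which was 0.08 with a correction of each library for GC content.

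A direct comparison of EMX1-FL with EMX1-X1 cells asked whether the 2 transcripts differed. It shares the EMX1-FL libraries with the contrast that chose the genes. PTPRK was 1.19-fold higher in EMX1-FL cells, a log2 difference of 0.25 with an interval of 2 standard errors from -0.12 to 0.62 (adjusted p = 0.631 in edgeR). For PTPRM the difference was 0.32 (interval -0.17 to 0.81), for PTPRE 0.42 (interval -0.61 to 1.45) and for PTPRD 0.57 (interval -0.26 to 1.41, adjusted p = 0.630 in edgeR). PTPRD was the 1 member in which every EMX1-FL library was above every EMX1-X1 library, as in 3.89% of all genes tested. PTPRS, PTPRU and PTPRF were lower in EMX1-FL cells by value, at -0.35, -0.26 and -0.24, and PTPRA and PTPRG were at -0.02 and 0.09. Of the 9 members 0 were called with edgeR, where 1.42% of all genes tested were. None passed an unadjusted p under 0.05 in edgeR, as 7.63% of all genes tested did, or the call rule in DESeq2, as 1.6% did, and at such shares a count of 0 among 9 is no result about the members. The intervals include differences on either side of 0, so the test does not show that the 2 transcripts act alike.

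The subtypes were then compared as sums of TPM. The R2B sum was 16.5, 15.4 and 16.2 TPM in the vector libraries, 30.3, 27.8 and 31.4 TPM in the EMX1-FL libraries and 27.8, 29.2 and 30.3 TPM in the EMX1-X1 libraries. Both overexpression groups were above the vector control in every library and overlapped each other, with means of 16.0 ± 0.582, 29.8 ± 1.84 and 29.1 ± 1.26 TPM (SD, n = 3 each). Of these, PTPRK alone had means of 5.43, 15.1 and 12.7 TPM. Since members were chosen for rising with EMX1-FL, the rise of the R2B sum there restates the choice. The EMX1-X1 sums are set against the same vector libraries. Within the overexpression groups PTPRU was high in the cluster B libraries in which PTPRK was low, and their sum varied little. The R2A sum was 77.7 ± 1.50, 85.9 ± 23.1 and 107 ± 26.0 TPM (SD, n = 3 each) in the same order, and its highest libraries were EMX1-X1 2 and 3 and EMX1-FL 1, at 127, 116 and 112 TPM. The R4 sum, nearly all of it PTPRA, was 73.5 ± 0.980, 71.0 ± 3.51 and 72.2 ± 3.12 TPM (SD, n = 3 each), and the R5 sum was 15.2 ± 3.38, 17.3 ± 5.00 and 16.3 ± 1.93 TPM (SD, n = 3 each). In R2A, R4 and R5 the groups overlapped.

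**Figure D2:**
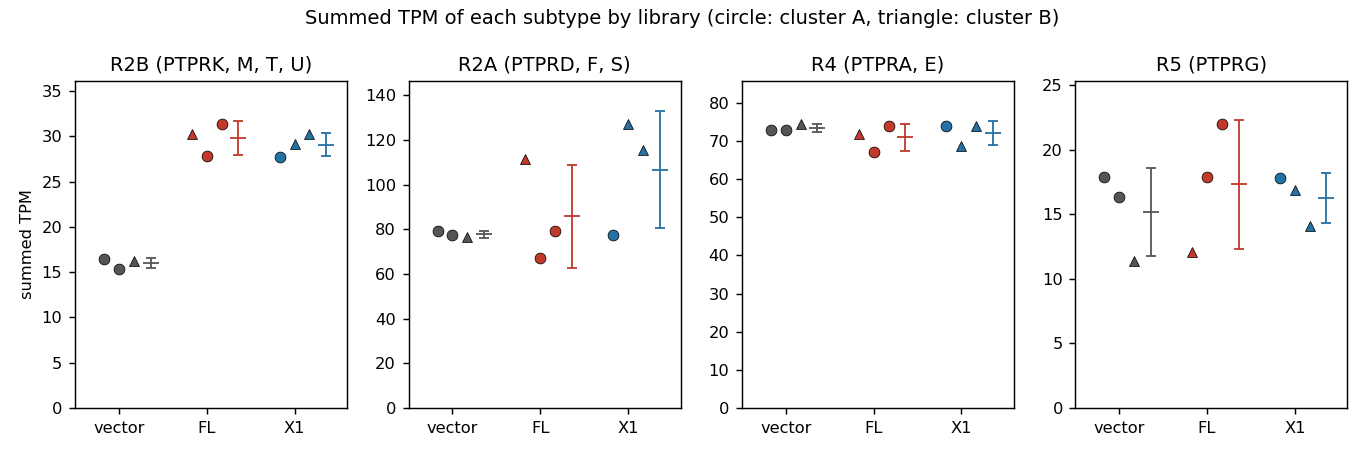
Summed TPM (y axis, transcripts-per-million) of the members of each subtype in each library (x axis, by group), with circles for cluster A, triangles for cluster B and bars for the mean ± SD of 3 libraries. The R2B sum lies between 15.4 and 16.5 TPM in vector libraries and between 27.8 and 31.4 TPM in the 6 overexpression libraries, while in R2A, R4 and R5 the groups overlap. Members were chosen for rising with EMX1-FL, so the R2B rise there restates the choice.

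The make-up of the R2B subtype shifted with its level. PTPRU held 57.2% of the R2B sum in the vector control (54.6% to 62.3%), 37.7% in EMX1-FL cells (30.3% to 50.3%) and 46.5% in EMX1-X1 cells (36.1% to 54.8%). PTPRK held 33.9% (30.7% to 37.6%), 50.8% (40.4% to 57.2%) and 44.0% (38.1% to 53.1%), so its share was higher in all 6 overexpression libraries than in the vector libraries. PTPRM held 8.73%, 11.5% and 9.49%, and its ranges overlapped. As a ratio of TPM, PTPRK to PTPRU was 0.611, 0.689 and 0.493 in the vector libraries, 0.803, 1.68 and 1.89 in the EMX1-FL libraries and 1.47, 0.840 and 0.695 in the EMX1-X1 libraries. The ratio was above 1 only in the cluster A libraries of the 2 overexpression groups, and EMX1-X1 3 lay just above vector control 2. The R2B share of the TPM of all 10 members was 8.79% in the vector control, 14.7% in EMX1-FL cells and lay between these in EMX1-X1 cells. The shares and ratios rest on the same choice of genes and are a description.

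Since several members differed between the clusters of libraries, each was also compared within the clusters. PTPRU was higher in cluster B by 0.58 on the log2 scale, PTPRS by 0.52, PTPRF by 0.41 and PTPRE by 0.40 (mean over groups of the difference between clusters). PTPRG had a difference of -0.43, PTPRD of -0.39, PTPRM of -0.27 and PTPRK of -0.24, and PTPRA of 0.07. The GC content of the longest transcript was 62.9% for PTPRS, 61.7% for PTPRU and 59.4% for PTPRF, and 43.9% for PTPRK, 42.9% for PTPRG and 42.4% for PTPRD. PTPRM (52.7%), PTPRA (50.6%) and PTPRE (47.0%) lay between. EMX1 itself was higher in cluster B by 0.75. The parts of GC content and of the EMX1 level in these differences were not tested.

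Within cluster A, PTPRK exceeded the vector control by a mean log2 difference of 1.49 with EMX1-FL and 1.33 with EMX1-X1, and within cluster B by 1.12 and 1.02. For PTPRM these values were 1.23 and 0.95 in cluster A and 1.14 and 0.97 in cluster B. For PTPRD they were 1.59 and 0.95, and 2.09 and 1.79. PTPRE gave 1.66 and 0.18 in cluster A and 1.04 and 1.14 in cluster B, so its value in EMX1-X1 cells differed between the clusters. A cluster holds as few as 1 library of a group, so these values have no test. For PTPRU, PTPRF and PTPRS the values in EMX1-FL cells were 0.03, -0.04 and -0.25 in cluster A and 0.42, 0.34 and 0.39 in cluster B. In EMX1-X1 cells they were 0.15, 0.04 and -0.13 in cluster A and 0.39, 0.39 and 0.50 in cluster B.

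With a correction of each library for GC content, the log2 difference of PTPRK from the vector control was 1.19 in EMX1-X1 cells, and with the cluster as a covariate it was 1.20. The GC correction gave 0.76 for PTPRM, 1.41 for PTPRD and 1.16 for PTPRE in EMX1-X1 cells. It gave 0.08 for PTPRU, 0.03 for PTPRF, -0.07 for PTPRS, 0.10 for PTPRG and -0.20 for PTPRA. Over 22 alternatives, 9 of them leaving out 1 library each, the value of PTPRK stayed between 1.01 and 1.21 in EMX1-X1 cells and between 1.27 and 1.50 in EMX1-FL cells. PTPRM ranged from 0.65 to 1.12 in EMX1-X1 cells and from 0.89 to 1.44 in EMX1-FL cells. In EMX1-X1 cells the study's rule was met by PTPRK in all 22 alternatives, by PTPRM in 2 of 22, by PTPRD in 17 of the 21 that gave it a value and by PTPRE in 2 of 21. PTPRD fell short of the rule without vector control 1 (log2 fold change 1.17) and without vector control 3 (0.99). PTPRE met it without EMX1-X1 1, the library at 0.416 CPM, where its log2 fold change was 1.49.

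The genes whose level over the 9 libraries was most like that of PTPRK, among 15322 genes with a mean of at least 1 CPM, were KCNA1, a voltage-gated potassium channel (Pearson r = 0.994), SDC2, a heparan sulfate proteoglycan (0.983), F2RL1, the protease-activated receptor PAR2 (0.981), FN1, fibronectin (0.981), and CD24, a mucin-like surface protein (0.979). Spearman's rho was between 0.900 and 0.967 for these 5. The most opposite were NRP2, a semaphorin and VEGF co-receptor (-0.959), TXNDC11 (-0.947) and FUT11 (-0.940). These correlations are over 9 libraries of 3 groups, so they follow the group difference and the clusters, and are given as a description. PTPRM had r = 0.911 with PTPRK (rank 60) and EMX1 r = 0.884 (rank 101), while PTPRG was at 0.288, PTPRU at 0.160, PTPRF at 0.137, PTPRS at -0.07 and PTPRA at -0.67. The value of EMX1 follows the difference from the vector control. Within each overexpression group the cluster B libraries held more EMX1 and less PTPRK than the cluster A libraries. EMX1-FL 1 had 251 CPM of EMX1 and 30.0 CPM of PTPRK, and EMX1-FL 3 had 145 and 41.7 CPM. EMX1-X1 2 had 294 and 28.2 CPM, and EMX1-X1 1 had 145 and 35.2 CPM. EGFR, the kinase gene whose product PTPRK acts on, had r = 0.866 and was at 14.8 ± 1.20, 30.8 ± 4.80 and 21.9 ± 1.03 CPM (SD, n = 3 each) in the vector control, EMX1-FL and EMX1-X1 groups.

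Other phosphatases and partners were looked at from lists of related genes. Among all genes tested the call rule was met in either direction by 2.42% in EMX1-FL cells and 2.5% in EMX1-X1 cells, and an unadjusted p under 0.05 in edgeR by 5.8% and 8.11%. At these shares a list of this size may hold no call, so a count of 0 says little about the list. Of 10 other receptor-type phosphatases 5 were tested, and 0 were called with edgeR in EMX1-FL or EMX1-X1 cells. At an unadjusted p under 0.05 edgeR passed 0 of them in EMX1-FL cells and 1 in EMX1-X1 cells (PTPRN, log2 fold change 0.94), and DESeq2 called 0 in both. The most abundant of these, PTPRJ, a phosphatase of growth factor receptors, was at 7.40 ± 0.576, 10.2 ± 1.98 and 8.96 ± 0.224 TPM (SD, n = 3 each) in the vector control, EMX1-FL and EMX1-X1 groups, and PTPRN2 was at 3.67 ± 0.458, 5.45 ± 0.760 and 5.16 ± 0.687 TPM (SD, n = 3 each). Their median log2 fold change was 0.36 in EMX1-FL cells and 0.32 in EMX1-X1 cells. Of 17 non-receptor phosphatases 13 were tested, and 1, PTPN5, a phosphatase of neuronal MAP kinases, was called higher in both groups, with log2 fold changes of 1.08 (standard error 0.30) and 1.08 (standard error 0.30). PTPN5 was at 1.50 TPM in the vector control, and its edgeR adjusted p was 0.338 and 0.462. PTPN11, which acts in RAS signaling and was the most abundant of the 17, was at 126 ± 26.7, 159 ± 30.5 and 128 ± 23.8 TPM (SD, n = 3 each), and PTPN12 at 116 ± 24.9, 157 ± 56.4 and 124 ± 32.6 TPM (SD, n = 3 each). The median over the 13 was 0.03 in EMX1-FL cells and -0.01 in EMX1-X1 cells.

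Of 26 genes for ligands of R2A phosphatases and PTPRG, 15 were tested. SDC2 was called higher in both groups, with log2 fold changes of 1.44 (standard error 0.24) and 1.18 (standard error 0.24), at 5.96 ± 0.913, 17.3 ± 5.16 and 14.4 ± 2.56 TPM (SD, n = 3 each). The neuronal adhesion gene SLITRK1 was called lower in EMX1-FL cells (-1.15), at 2.24 ± 0.260 TPM in the vector control and 1.08 ± 0.162 TPM (SD, n = 3 each). GPC2, a glypican, was called higher in EMX1-X1 cells (1.00, standard error 0.27), a call that DESeq2 did not make. SDC1, the most abundant of the ligands, was at 93.3 ± 7.34, 175 ± 63.0 and 194 ± 46.4 TPM (SD, n = 3 each). The median of the 15 was 0.23 in EMX1-FL cells and 0.25 in EMX1-X1 cells. After Benjamini-Hochberg adjustment 0 of the 15 passed in edgeR in either group. Among the liprins and TRIO, which sit under the R2A phosphatases, PPFIA2 was 1 of 7 called, higher in EMX1-FL cells (1.06, standard error 0.34, edgeR adjusted p = 0.528). Its level was low, at 0.591 TPM in the vector control and 1.31 TPM in EMX1-FL cells. The abundant PPFIA1 and TRIO had log2 fold changes between -0.05 and 0.11 in both groups.

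The partners of the R2B subtype were read in the same way. Of 12 junction partners and substrates, all tested, 0 were called with edgeR or DESeq2 in either group. At an unadjusted p under 0.05 edgeR passed CDH2 in EMX1-FL cells (log2 fold change 0.58) and CDH1 and CDH2 in EMX1-X1 cells (0.75 and 0.48). CTNNA1 and CTNNB1, the alpha- and beta-catenin genes, were at 173 ± 2.52 and 111 ± 5.39 TPM in the vector control, 173 ± 8.86 and 115 ± 21.5 TPM in EMX1-FL cells and 186 ± 2.36 and 110 ± 8.60 TPM in EMX1-X1 cells (SD, n = 3 each). Of 8 genes of the proteases that process R2B proteins, 0 were called with edgeR or DESeq2 in either group, and at an unadjusted p under 0.05 edgeR passed 0 in EMX1-FL cells and FURIN in EMX1-X1 cells (0.73). The most abundant, APH1A and NCSTN of gamma-secretase, had log2 fold changes of -0.01 and -0.20 with EMX1-FL and of 0.30 and -0.16 with EMX1-X1. PTPRA and PTPRE act on SRC family kinases. Of 7 genes of these kinases and their partners, 0 were called with edgeR or DESeq2 in either group. At an unadjusted p under 0.05 edgeR passed 0 of them in either group. The partner gene GRB2 was at -0.17 and 0.19 and the kinase gene YES1 at 0.35 and 0.01.

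Markers of other cell types were read beside these results. The summed level of the 13 hepatocyte markers was 0.765 to 1.06 TPM in the vector libraries, 1.93 to 3.40 TPM in the EMX1-FL libraries and 1.16 to 3.11 TPM in the EMX1-X1 libraries, so it was higher in all 6 overexpression libraries. Most of that sum was ALB, the 1 marker tested, at means of 0.618, 1.86 and 1.44 TPM. ALB was called higher in both groups (log2 fold changes 1.46 and 1.11), with edgeR adjusted p of 0.467 and 0.576. The sum thus says little about the other hepatocyte markers. The 6 neural markers, of which 5 were tested, summed to 17.0 to 18.7 TPM in the vector libraries, 25.6 to 32.9 TPM in the EMX1-FL libraries and 22.3 to 32.8 TPM in the EMX1-X1 libraries. None of the 5 was called with edgeR or DESeq2, and SNAP25 and SYT1 passed an unadjusted p under 0.05 in edgeR in EMX1-FL cells. Among the 7 mesenchymal markers ZEB1 and SNAI2 were called higher in EMX1-FL cells (1.22 and 2.02) and SNAI2 in EMX1-X1 cells (1.27). ZEB1 was below 1 TPM, at 0.384 TPM in the vector control and 0.945 TPM in EMX1-FL cells (standard error 0.53, edgeR adjusted p = 0.837). VIM was at 0.08 with EMX1-FL and -0.23 with EMX1-X1, and ZEB2 at -0.12 and -0.44. Of the 7 markers, 6 had a positive value with EMX1-FL and 5 with EMX1-X1. Of the 5 epithelial markers, 3 of them tested, 0 were called with edgeR or DESeq2, with CDH1 alone at an unadjusted p under 0.05, in EMX1-X1 cells. The 6 leukocyte and 5 endothelial markers held 0 tested genes, with sums of at most 2.02 and 0.412 TPM and CD68 and CDH5 at 0 in all libraries. The part of these markers in the values of the phosphatases was not tested.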

How the data were processed

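RNA-seq libraries of SNU-398 cells, 3 vector control, 3 EMX1-FL and 3 EMX1-X1, were grouped by the sample labels. RNA was extracted with TRIZOL, and libraries were made with a NEBNext Ultra kit and sequenced on an Illumina NovaSeq. The authors trimmed reads with fastp, aligned them with STAR and deposited raw counts per gene name, without normalization. The file header names featureCounts 2.0.1 with Ensembl release 99 of GRCh38, counting exons, while the submitters' processing notes list featureCounts 2.0.6 and the methods name RSEM. By the default of featureCounts, pairs on exons of more than 1 gene are not counted, which lowers genes with shared exon bases. A second table deposited by the authors holds expression as log2(TPM + 1), within 4.98e-06 of the values computed from counts and listed lengths. TPM here was taken back from it.

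The count model was edgeR 4.0.16 in R 4.3.3, with filterByExpr, TMM factors and a quasi-likelihood test on all 9 libraries with no term but the group, and Benjamini-Hochberg adjustment over 18574 genes. CPM use TMM-normalized library sizes. Between 21562703 and 25197970 counts per library set the precision. The alternatives were DESeq2 1.42.0, limma 3.58.1 on log2 TPM with pseudocounts of 0.1 and 1, RLE factors, upper-quartile factors, unscaled library size, a minimum of 10 counts in each library or of 1 count in all, only the 6 libraries compared, a replicate block, library clusters as a covariate, a GC offset (loess, span 0.3, GENCODE release 29 transcripts, 95.6% of genes), the offset with the block, and each library left out. The model was tested on simulated data. Tables and figures were made with Python 3.11.15, pandas 2.3.3, scipy 1.17.1 and matplotlib 3.10.9.

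The members, lists, tests and alternatives were chosen with earlier results of these data known. Named genes are the members, EMX1, EGFR, the 5 genes most like PTPRK and the 3 most opposite, and from each list the genes called and the 2 with the highest TPM; PTPRN, CDH1, CDH2, FURIN, SNAP25 and the markers at 0 were named after their values were seen. The lists came from background knowledge. The design and the counts left no sample out.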

Additional observations from a re-analysis of the deposited data

How the results depend on the processing

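Of the alternatives, the 6 that brought PTPRK in EMX1-X1 cells below an adjusted p of 0.05 were DESeq2 (log2 fold change 1.11, adjusted p = 0.000179), the GC offset (1.19, edgeR adjusted p = 0.00109), the GC offset with the replicate block (1.19, edgeR adjusted p = 0.0162), the cluster covariate (1.20, edgeR adjusted p = 0.00194), no filter beyond 1 count (1.13, edgeR adjusted p = 0.00406) and EMX1-FL replicate 1 left out (1.13, edgeR adjusted p = 0.0373). Over each library left out its log2 fold change was 1.01 to 1.19, and the adjusted p ranged from 0.000179 to 0.989 over all 22 alternatives. These fits share the vector libraries with the contrast that chose the genes. Library numbers did not pair the samples, with a mean correlation of deviations of -0.126 (-0.522 to 0.29, 9 pairs) for the same number and 0.0596 for different numbers. With the replicate block PTPRK was at 1.38 in EMX1-FL cells, 1.13 in EMX1-X1 cells (edgeR adjusted p = 0.869) and 0.245 between them, and the counts of members called stayed at 4, 2 and 0.

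Members past the call rule in EMX1-FL cells, the contrast that chose them, were 2 with at least 10 counts in every library and 1 with limma on log2(TPM + 1). In EMX1-X1 cells they were 1 with each of these, 1 with limma on log2(TPM + 0.1), and 1 to 3 with a library left out, where the count of 1 was without vector control 3. Genes called among all tested, 450, 464 and 263 in the 3 comparisons, were 217, 214 and 121 with at least 10 counts, 142, 177 and 107 with limma on log2(TPM + 1), and 947, 962 and 686 with no filter. With 1 library left out they were 419 to 644, 296 to 902 (without EMX1-X1 2 and without EMX1-X1 1) and 126 to 1125. The cause was not tested.

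Directions of members that were not called turned in some settings. In EMX1-FL cells PTPRS kept its sign in 11 of 22 alternatives (-0.284 to 0.139), PTPRG in 18 (-0.0817 to 0.290), and PTPRU and PTPRF in 21, with lowest values of -0.105 and -0.0958. In EMX1-X1 cells PTPRG was at -0.00729 with DESeq2 and with RLE factors, -0.0108 with at least 10 counts, -0.00184 with upper-quartile factors and -0.137 to 0.0979 with a library left out, and PTPRS was at -0.0672 with the GC offset and -0.0679 with the offset and block. In the direct comparison of the transcripts the GC offset gave 0.0617 for PTPRU, 0.0562 for PTPRF, 0.0162 for PTPRS, 0.0488 for PTPRA and -0.104 for PTPRG. With the offset and block these were 0.0675, 0.0539, 0.0166, 0.0485 and -0.105. The cluster covariate gave -0.0822 for PTPRG, and with a library left out PTPRA was at -0.0672 to 0.00259 and PTPRG at -0.0904 to 0.281.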
